A study of Homo sapiens with 58 samples.

Results

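The step examined here took SOX9 from 51.7% to 25.8% of its untreated level, a loss of 25.9 percentage points, in cranial neural crest cells (CNCCs). It compared all 7 SOX9-tagged samples treated with 1.6 nM dTAGV-1 for 48 h with all 7 treated with 5 nM for 48 h, 14 of the 58 ATAC-seq samples of the series, and used no sample without the degrader. H9, a widely used human embryonic stem cell line, was the source of the CNCCs, and in both groups both copies of SOX9 carried an FKBP12-F36V degradation tag with mNeonGreen and V5, so that dTAGV-1 recruits a ubiquitin ligase to the protein. The tag and exposure to the degrader were thus shared by both groups. Each side held 4 samples of clone S9CC13 (differentiations R6, R10, R13 and R14) and 3 of clone S9CC47 (R5, R6 and R8). Each clone is 1 edited line, and samples were paired by clone and differentiation. The other comparisons used SOX9-tagged samples of the same 7 replicates at 0, 0.5, 16 or 500 nM (100, 77.9, 8.14 or 0.95% SOX9) for 48 h, SOX9-tagged cells given vehicle for 24 h or 500 nM for 3 h or 24 h (2 samples each), and wild-type (WT) cells without the tag at 0 or 500 nM for 48 h (2 samples each). For the S9CC13_R14 samples at 0 and 0.5 nM the concentration label is exchanged relative to the title and the SOX9 level, which were followed here, and the step itself uses neither sample. For 1 of the 2 replicates of the time course the column of counts and the sample title name different clones. The SOX9 percentages are those of the labels and were not measured by ATAC-seq.

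SOX9 is a transcription factor of the SOX family whose HMG box binds short AT-rich sites and bends DNA, and it can bind paired sites as a dimer. In the neural crest it acts in specification and migration of the cells, and in the facial skeleton it drives the cartilage programme with SOX5 and SOX6, including the genes of the cartilage collagens. Loss of 1 functional copy causes campomelic dysplasia, a skeletal disorder with craniofacial malformations, so the range of dosages around the loss of a copy is the one of interest for this step. ATAC-seq reads accessibility, the frequency with which Tn5 cuts a regulatory element (RE), and in bulk samples a change in every cell and a change in the share of cells cannot be told apart.

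Total counts in the 151,457 REs ran from 31.56 to 67.34 M (1e6) per sample at 1.6 nM (45.09 ± 11.0, SD, n = 7) and from 35.24 to 75.6 M at 5 nM (50.87 ± 15.61, SD, n = 7). The 5 nM sample of replicate S9CC47_R6 stood apart. Promoter REs, those within 1,000 bp of an annotated transcript start, took 56.88% of its counts against 49.93% in its 1.6 nM partner, a gain of 6.96 percentage points, whereas this share moved by between -1.12 and 2.03 points in the other 6 replicates. The main counts of REs are therefore also given without replicate S9CC47_R6, left out of both groups at once. Some shares and overlaps below are given with it only. As a check of cell type, the most accessible promoter RE of each marker gene was read. At 10 of 10 neural crest markers, among them TFAP2A, TWIST1, ALX1 and NR2F1, it held a mean of 15.43 to 92.76 CPM (TMM-scaled counts per 1e6 counts) at 1.6 nM. The median over all promoter REs, not only the most accessible of each gene, was 7.01 CPM. Chosen in the same way, promoter REs of genes of other cells were also accessible, from 1.2 CPM at POU5F1 to 41.17 CPM at LIN28A. An open promoter does not show that a gene is expressed. Of the 50 promoter REs of these markers 2 were lower in the step and 0 higher, with edgeR and with DESeq2 alike, and the 2 were at ELAVL4 and LIN28A. The most accessible promoter RE of each of the 24 markers with one was not called (2 at an unadjusted p under 0.05).

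Accessibility mostly fell. Of all REs, 4,299 (2.84%) were lower and 733 (0.484%) were higher at 5 nM than at 1.6 nM with an edgeR adjusted p under 0.05, so that 85.4% of the called REs were lower. The REs that fell had a median log2 fold change of -0.576, so that accessibility decreased by 32.9%, with a median standard error of 0.095, and those that rose had a median of 0.39, an increase of 31.3%. Over all REs the median was 0.018. A fall of more than 1 log2 unit was seen in 364 of the lower REs, with an extreme of -2.18, while the largest rise was 0.97. In 3,799 of the 4,299 lower REs (88.4%) and 615 of the 733 higher REs (83.9%) all 7 replicates moved the same way. The spread between differentiations was nevertheless wide, and the levels of the 1.6 and 5 nM samples did not overlap in 386 of the lower REs (9.0%) and in 4 of the higher ones, where 0.258% and 0.00462% of all REs were so separated in either direction. Without replicate S9CC47_R6, 4,878 REs were lower and 1,833 were higher, and 4,055 of the lower and 651 of the higher calls were shared with the comparison of all 14 samples. Without any 1 of the other 6 replicates (S9CC13_R6, R10, R13 and R14, S9CC47_R5 and R8) 3,218 to 3,996 REs were lower and 295 to 475 were higher, the fewest higher without S9CC47_R8. With the differentiation batch as the covariate in place of the replicate, 2,588 REs were lower and 89 were higher.

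An intergenic RE at chr6:161319140-161319640 (hg38), 45,079 bp from the start of AGPAT4, an acyltransferase of phospholipid synthesis, held 6.96, 10.0 and 21.9 CPM as the lowest, median and highest of the 7 samples at 1.6 nM. At 5 nM it held 1.75, 2.8 and 7.81 CPM. The ranges overlapped through the 5 nM sample of replicate S9CC47_R8 alone, the highest of its group. Each of the 7 pairs fell, which was a condition of choosing this RE. Accessibility was 3.66-fold lower (log2 fold change -1.87 ± 0.094, SE, edgeR adjusted p = 3.13e-07). An RE in an intron of LIMD1, which encodes a LIM-domain scaffold protein, went from 2.27, 3.4 and 23.2 CPM to 0.727, 0.95 and 7.18 CPM. Its highest value in both groups came from replicate S9CC47_R8, and the log2 fold change, -1.84 ± 0.095 (SE), had an edgeR adjusted p of 3.13e-07.

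SOX10 encodes the SOX factor of crest-derived glia and melanocytes. The RE 9,675 bp from the SOX10 start, within the gene POLR2F (chr22:37967856-37968356), was among the 8 named for the largest falls. It was classed as a promoter RE by a transcript start that belongs to no protein-coding gene. It held 2.93, 7.95 and 10.3 CPM (lowest, median, highest) at 1.6 nM and 0.803, 1.97 and 3.12 CPM at 5 nM. Only the lowest 1.6 nM sample lay below the highest 5 nM sample, and the log2 fold change was -1.78 ± 0.121 (adjusted p = 1.52e-06). The others of this set were an intronic RE of DIAPH1, an actin-nucleating formin (-1.78), an intronic RE of GPAM, a mitochondrial acyltransferase (-1.77), an intergenic RE 206,839 bp from KCTD3 (-1.72), and the promoter REs of USP54 (-1.83) and of ARPC1A, a subunit of the Arp2/3 complex (-2.18). The last 4 were sparse, with medians of 1.53 to 1.88 CPM at 1.6 nM and 0.464 to 0.597 CPM at 5 nM, and in all 4 of them the groups did not overlap.

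The rises were smaller, and the 6 named had medians of 0.424 to 1.17 CPM at 1.6 nM. The largest among these, in an intron of DTNBP1, a subunit of a complex for lysosome-related organelles, went from 0.315, 0.817 and 6.34 CPM to 0.661, 1.17 and 12.4 CPM. The highest value in both groups was that of replicate S9CC13_R14, and the log2 fold change was 0.81 ± 0.119 (adjusted p = 0.000734). From 0 to 1.6 nM this RE was called lower (-0.59, edgeR adjusted p = 0.0194), with means of 2.85, 1.91 and 3.59 CPM at 0, 1.6 and 5 nM. The other 5 were not called from 0 to 1.6 nM. From 1.6 to 5 nM they had log2 fold changes of 0.69 to 0.73, nearest to TMEM260, FHOD3 (a formin of the heart muscle sarcomere), STXBP6, IRAK3 (an inhibitor of Toll-like receptor signalling) and CHRNA9 (a nicotinic acetylcholine receptor subunit). In each of these 6 REs all 7 pairs rose, which was a condition of choosing them, while the ranges of the groups overlapped.

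**Figure D1:**
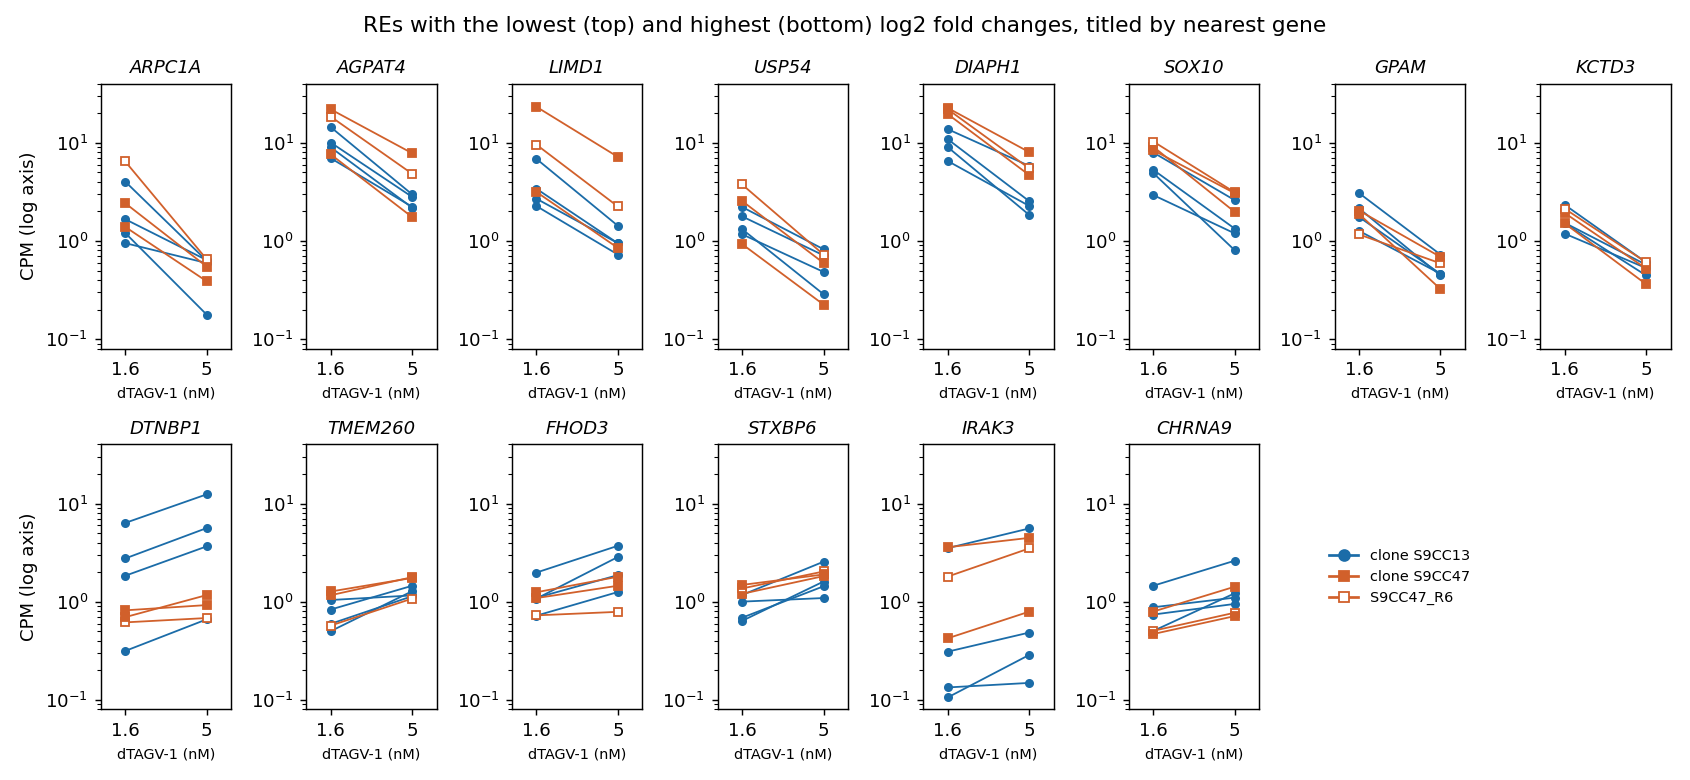
Accessibility in CPM (log axis) at 1.6 and 5 nM dTAGV-1 for the 8 lowest and 6 highest log2 fold changes, each titled by its nearest protein-coding gene. The REs were chosen among called REs with a mean of at least 1 CPM and the same direction in all 7 replicates. Each line joins the samples of 1 replicate, with circles for clone S9CC13, squares for S9CC47 and open squares for replicate S9CC47_R6. All 7 lines of every panel run the same way because of that choice.

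The letters of the REs separated the falls from the rises. The SOX core was searched as ACAAAG or ACAATG on both strands within a central window of each RE, as wide as the usual RE. It was present in 74.9% of the lower REs, 45.2% of the higher REs and 45.7% of all REs. Without replicate S9CC47_R6 it was in 72.3% of the lower and 47.6% of the higher REs. The share of REs called lower went up with the number of cores, from 1.31% of the 82,251 REs with no core to 3.55% with 1 core, 6.36% with 2, 9.14% with 3 and 11.0% with 4 or more. Across the same classes the share called higher stayed between 0.465% and 0.509%. REs with more cores also had a lower GC content (median 50.9% with no core, 42.7% with 4 or more) and a lower level (2.81 and 1.65 CPM), and the part of these in the result was not tested.

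SOX9 can bind as a dimer to short sites that face each other, so ACAAA or ACAAT followed after a gap by TTTGT or ATTGT was counted for each gap from 0 to 10 bp. A facing pair with a gap of 6 bp was present in 5.4% of the lower REs (232 REs) against 0.551% of all REs. With a gap of 5 bp the shares were 2.65% and 0.414%, and with a gap of 7 bp 2.44% and 0.411%. At gaps of 4 and 8 bp the lower REs held 0.395% and 0.419%, close to the 0.313% and 0.309% of all REs. Pairs turned away from each other showed no such gap, with 0.302% to 0.605% of the lower REs and 0.219% to 0.36% of all REs at any spacing. Of the 2,071 REs with a facing pair at 5 to 7 bp, 448 (21.6%) were lower and 4 (0.193%) were higher, with a median log2 fold change of -0.116 that was below 0 in each replicate (from -0.269 to -0.085). REs that held a core but no such pair had a median of 0.007 and 4.15% of them were lower. Without replicate S9CC47_R6, 477 of the REs with a facing pair were lower.

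**Figure D2:**
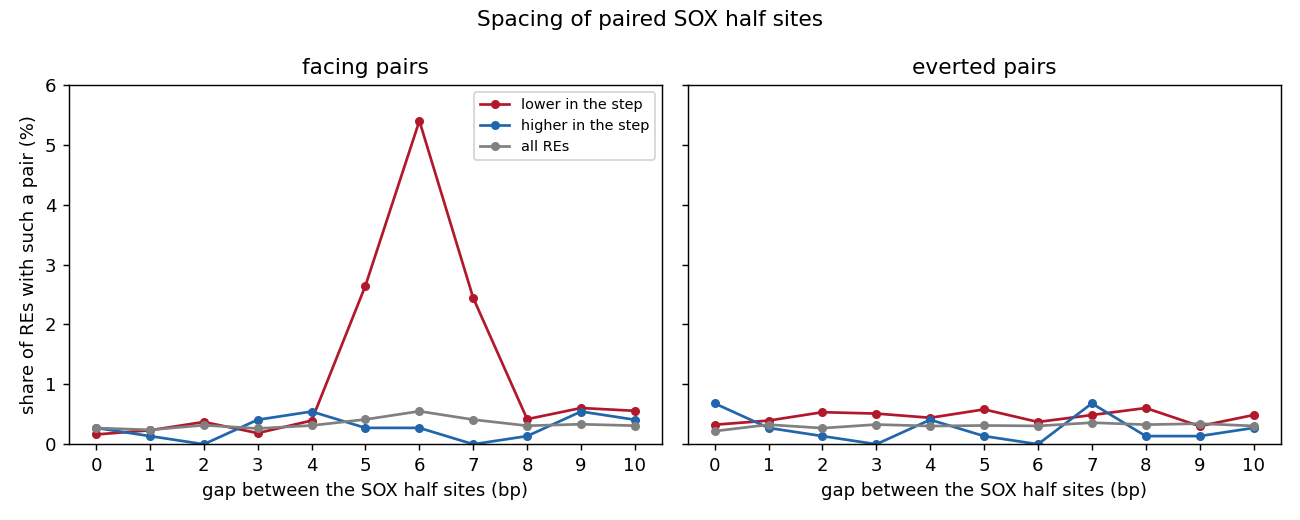
Share of REs (%) that hold a pair of SOX short sites against the gap between the short sites (bp), for pairs that face each other (left) and pairs turned away (right), in REs lower in the step, higher in the step and in all REs. The lower REs peak at 5.4% for facing pairs at 6 bp, with 2.65% and 2.44% at the neighbouring gaps, and lie under 1% at every other spacing.

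The 5 REs with a facing pair that fell most, among REs outside UTRs with a mean of at least 1 CPM and the same direction in all 7 replicates, are shown to let the arrangement be read. Each line gives 81 bases of the reference genome (hg38, forward strand, 5′ to 3′) around the pair, with the short sites in capitals.
VPS37B, chr12:122898984-122899064: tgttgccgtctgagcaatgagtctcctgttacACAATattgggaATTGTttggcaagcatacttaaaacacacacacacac
SLC39A11, chr17:72572072-72572152: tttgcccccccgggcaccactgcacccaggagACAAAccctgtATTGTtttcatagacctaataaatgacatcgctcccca
AGPAT4, chr6:161318622-161318702: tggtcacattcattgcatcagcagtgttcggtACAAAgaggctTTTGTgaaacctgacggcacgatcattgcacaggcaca
KLHL13, chrX:117327409-117327489: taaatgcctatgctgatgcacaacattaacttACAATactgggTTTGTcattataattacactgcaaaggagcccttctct
OR6B3, chr2:240051950-240052030: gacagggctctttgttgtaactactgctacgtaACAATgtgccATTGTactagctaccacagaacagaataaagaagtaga

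The names are those of the nearest protein-coding genes, and of the 5 REs only the OR6B3 one lay inside the gene named, in an intron. The gap was 7 bp in the first, 6 bp in the next 3 and 5 bp in the last. The VPS37B RE, 2,575 bp from that gene's start, went from 1.03, 1.42 and 2.35 CPM (lowest, median, highest) at 1.6 nM to 0.119, 0.449 and 0.713 CPM at 5 nM. The groups did not overlap, and the log2 fold change was -1.70 ± 0.168 (adjusted p = 2.68e-05). The SLC39A11 RE went from 2.98, 3.96 and 7.06 CPM to 0.862, 1.48 and 2.91 CPM, again without overlap (-1.55 ± 0.119, adjusted p = 3.34e-06). SLC39A11 encodes a zinc transporter and is a neighbour of SOX9 on chromosome 17. The AGPAT4 RE lies next to the one with the second largest fall described above, and its log2 fold change was -1.46 ± 0.138. The log2 fold changes of the KLHL13 and OR6B3 REs were -1.41 and -1.36. The SLC39A11 and KLHL13 REs lay 153,226 and 620,139 bp from the starts of the genes they are named after.

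Among the named REs, the one with the second largest fall held no facing pair. Its sequence and that of the LIMD1 RE are shown for the SOX core nearest to the centre, in capitals on the forward strand, which reads as the core on the reverse strand.
AGPAT4, chr6:161319363-161319443: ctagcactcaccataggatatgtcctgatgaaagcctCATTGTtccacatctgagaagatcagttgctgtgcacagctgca
LIMD1, chr3:45611750-45611830: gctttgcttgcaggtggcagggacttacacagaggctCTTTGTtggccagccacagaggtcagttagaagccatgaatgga

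Of 9 other motifs, the homeobox core TAATTA differed most between the REs that rose and all REs. It was in 25.0% of the higher REs, 13.7% of the lower and 13.1% of all. The SNAI and ZEB E-box CAGGTG was in 23.6% of the higher REs against 33.0% of all, and the TWIST-type E-box CAGATG was in 48.2% of the lower and 47.9% of the higher against 41.2% of all. For the NR2F site AGGTCA the shares were 38.3% and 39.3% against 33.2%, and for the TFAP2 site GCCNNNGGC they were 21.0% and 18.8% against 24.6%. The AP-1 site TGAGTCA (8.8% of lower, 10.5% of higher, 9.1% of all), the TEAD site GGAATG (33.9%, 28.4% and 30.2%), the forkhead site TGTTTAC (7.4%, 7.0% and 6.7%) and the RUNX site TGTGGTT (10.3%, 12.0% and 9.1%) lay closer to all REs. Without replicate S9CC47_R6 the higher REs held TAATTA in 23.2%, the TWIST-type E-box in 53.1% and the TEAD site in 32.1%. In percentage points the TWIST-type E-box then differed more from all REs than TAATTA did, and the TEAD site lay above all REs. All were searched on both strands, and a match does not show binding. The median GC content was 43.3% in the higher, 46.9% in the lower and 48.1% in all REs, and its part in these shares was not tested. The 2 REs with TAATTA (in capitals) that rose most under the same rule were the DTNBP1 RE and one 163,185 bp from the start of TMEM260.
DTNBP1, chr6:15525995-15526075: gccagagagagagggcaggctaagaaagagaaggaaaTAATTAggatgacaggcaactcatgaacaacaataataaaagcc
TMEM260, chr14:56324847-56324927: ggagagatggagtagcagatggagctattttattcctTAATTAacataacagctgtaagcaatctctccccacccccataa

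Falls were less frequent at promoters. Of the 37,377 promoter REs 581 were lower (1.55%) and 71 were higher (0.19%), whereas 3.49% of the 61,766 intronic, 2.99% of the 42,831 intergenic and 3.01% of the 9,483 exonic REs were lower. Intronic REs made up 50.1% of the lower and 51.3% of the higher REs and 40.8% of all. In replicate S9CC47_R6 the median log2 change of intergenic REs was -0.089, and in the other 6 replicates it lay between -0.002 and 0.026. Its median over promoter REs, 0.105, was close to that of replicate S9CC47_R5 (0.099). Without it 727 promoter REs were lower and 150 were higher.

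Cartilage genes are the classical targets of SOX9. At the 8 cartilage collagen genes 8 of 88 REs (9.09%) were lower, all at COL2A1 (3 of 8 REs), COL9A2 (2 of 2) and COL9A3 (3 of 11), and 0 were higher with either edgeR or DESeq2 (6 at an unadjusted p under 0.05). The median log2 fold change over these REs was -0.042. The promoter RE of COL9A2, a chain of the type IX collagen, held 33.5, 36.4 and 41.4 CPM at 1.6 nM and 26.1, 28.5 and 31.4 CPM at 5 nM. The groups did not overlap, and the change was -0.36 ± 0.048 on the log2 scale (adjusted p = 0.000366). The promoter RE of COL2A1, the main collagen of cartilage, went from 24.6, 36.4 and 45.6 CPM to 18.7, 28.0 and 40.4 CPM, and although these ranges overlapped, all 7 pairs fell (-0.37 ± 0.055, adjusted p = 0.000847). Without replicate S9CC47_R6, 12 REs of these genes were lower.

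At the genes of the cartilage matrix 7 of 93 REs (7.53%) were lower and 0 higher with both tools (3 unadjusted), at UCMA, CNMD, ACAN, MATN4 and SNORC, with a median over the list of 0.006. Both REs of UCMA, which encodes a secreted protein of growth plate cartilage, fell (-0.63 ± 0.071 and -0.62 ± 0.086). For the enzymes of chondroitin sulfate synthesis 3 of 134 REs (2.24%) were lower and 1 was higher, a share below the 2.84% of all REs, with CHST3 at -0.65 and CHST11 at -0.38. Of 210 REs at the 12 genes of the SOX family 11 (5.24%) were lower and 0 higher with both tools (13 unadjusted). They belonged to SOX5 (5 REs), SOX6 (3), SOX4, SOX10 and SOX13 (1 each), and the SOX10 RE is also counted with the glial genes below. SOX5 and SOX6 are the partners of SOX9 in cartilage, and an RE in SOX6 fell from a median of 13.8 to 6.81 CPM (-0.78 ± 0.078, adjusted p = 2.97e-05). The RE over the SOX9 start itself changed by 0.06 ± 0.052 on the log2 scale (adjusted p = 0.709), with medians of 45.8 CPM at 1.6 nM and 46.6 CPM at 5 nM.

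The genes of crest derivatives were next, to be read against the 2.84% lower and 0.484% higher of all REs. Of 111 REs at glial and melanocyte genes 9 (8.11%) were lower and 1, at MITF, was higher. Among the 9 were REs of SOX10, described above, ERBB3, a neuregulin receptor of Schwann cells, S100B, NGFR and EDNRB, with 1 each. At genes of peripheral neurons 4 of 94 REs (4.26%) were lower and 0 higher with both tools (6 unadjusted), with an ELAVL4 promoter RE at -0.71. At osteoblast genes 5 of 133 (3.76%) were lower and 1 higher, among them REs of PHEX (-0.58) and RUNX2 (-0.56), the leading factor of osteoblasts, and that share was near the one over all REs.

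Of 372 REs at 24 crest transcription factors 9 (2.42%) were lower and 1, at MSX1, was higher. That share was below the one over all REs, and the median log2 fold change was 0.025. The exception in size was ETS1, an ETS factor active in the cranial neural crest. Its intronic RE at chr11:128552879-128553379 went from 5.04, 7.5 and 12.95 CPM to 1.75, 2.69 and 4.03 CPM, without overlap (-1.51 ± 0.084, adjusted p = 3.63e-07). A second intronic RE of ETS1 fell by 1.32 on the log2 scale.

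Among signalling genes, 11 of 225 REs of the Hedgehog list (4.89%) were lower and 1 was higher. An RE in GLI2, a transcriptional effector of the pathway, went from 11.3, 20.3 and 24.2 CPM to 6.43, 12.1 and 17.1 CPM (-0.67 ± 0.065, adjusted p = 2.25e-05), and an RE 70,572 bp from CDON, a co-receptor, fell by 0.70. Of the WNT list 12 of 271 (4.43%) were lower and 1 higher, with NKD1 (-0.90) and AXIN2 (-0.84), both feedback inhibitors of the pathway. Of the FGF list 8 of 166 (4.82%) were lower and 0 higher with both tools (4 unadjusted), with the feedback inhibitors SPRY4 (-0.49) and SPRY1 (-0.32). Of the BMP and TGF-beta list 7 of 349 (2.01%) were lower and 2 higher, with TGFB2, a ligand (-0.72), and ID3, a target of the pathway (-0.48). Of the AP-1 and YAP list 7 of 147 (4.76%) were lower and 0 higher with both tools (6 unadjusted), with CCN2 (-0.79) and TEAD1 (-0.50). Without replicate S9CC47_R6 the REs called higher increased from 1 to 8 at the crest transcription factors, from 2 to 8 at BMP and TGF-beta genes, where those called lower increased from 7 to 11, from 1 to 5 at WNT genes, from 1 to 4 at Hedgehog genes, from 1 to 3 at osteoblast genes, and from 0 to 2 at both the SOX family and the collagens. These are to be read against all REs, where those called higher increased from 733 to 1,833 and those called lower from 4,299 to 4,878. With the differentiation batch as the covariate, which called 1.71% of all REs lower, 3 of the 88 collagen REs (3.41%) and 5 of the 111 glial and melanocyte REs (4.5%) were lower, and at the cartilage matrix the count was again 7 of 93 (7.53%). The count lower was then 3 of 147 (2.04%) at AP-1 and YAP genes, 5 of 372 (1.34%) at crest transcription factors, 2 of 94 (2.13%) at genes of peripheral neurons, 7 of 210 (3.33%) in the SOX family and 8 of 271 (2.95%) at WNT genes.

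**Figure D3:**
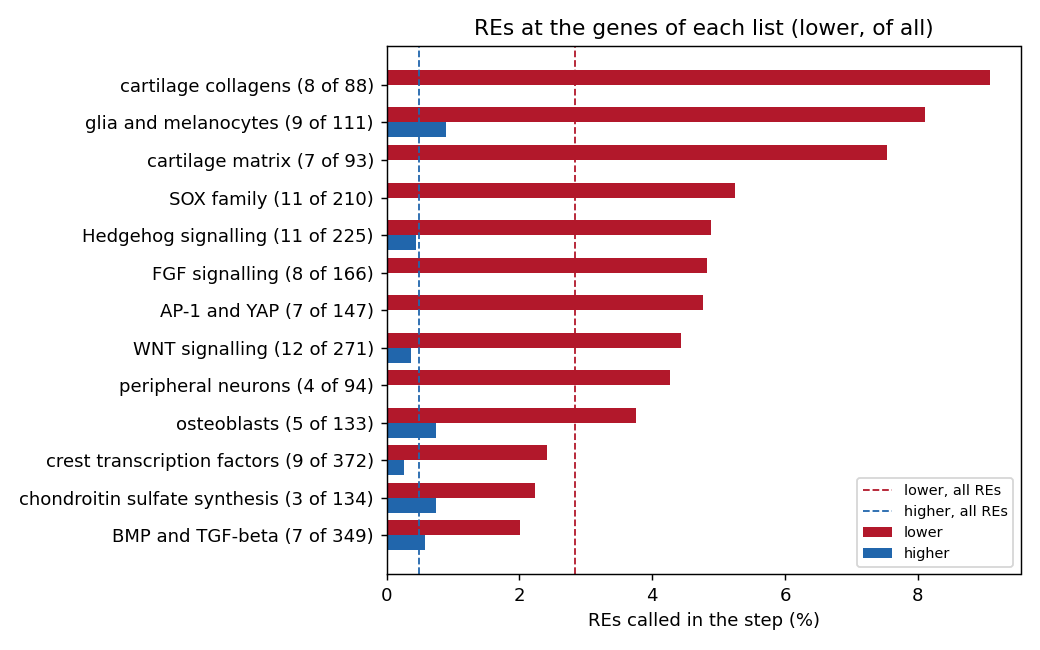
Share (%) of the REs at the genes of each list that were called lower or higher in the step, with the number lower and the number of REs of the list in brackets, and dashed lines at the shares over all REs (2.84% and 0.484%). The cartilage collagens (9.09%), glia and melanocytes (8.11%) and cartilage matrix (7.53%) have the largest shares lower with the replicate as block (3.41%, 4.5% and 7.53% with the differentiation batch instead), and 3 lists lie below the share of all REs.

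Counted over all genes, 2,644 of the 18,586 protein-coding genes with an RE had at least 1 lower RE, 472 had at least 1 higher RE and 142 had both. The gene with the most lower REs was RAD51B, which spans a long region and encodes a recombination protein, with 10 of 69 REs. In proportion, IER3 (5 of 10), FAM222A (6 of 17) and CUEDC1 (7 of 20) had more. These genes were chosen after their values were seen. In the 2 Mb before the SOX9 start and the 500 kb after it, 6 of 125 REs were lower (4.8%, against 2.84% of all REs) and 1 was higher (0.8%, against 0.484%).

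Full depletion and the time course shared no sample with the step. Of the 4,299 lower REs, 4,268 (99.3%) were also lower on full depletion from 0 to 500 nM at 48 h, where 16.8% of all REs were lower and 13.9% were higher, and 0 were higher there. In the other direction, the lower REs of the step were 16.8% of the 25,405 REs lower on full depletion. At 3 h of 500 nM, 3,912 (91.0%) were already lower, where 7.43% of all REs were, and 3 were higher. At 24 h 4,195 (97.6%) were lower, where 9.93% of all REs were. Of the 733 higher REs, 646 (88.1%) were higher on full depletion at 48 h and 409 (55.8%) at 24 h, where 4.7% of all REs were higher. At 3 h only 35 (4.77%) were higher, where 0.912% of all REs were, with a median log2 fold change of 0.14 at 3 h and 0.7 at 48 h. The 48 h samples came from the same differentiations as the step, and the time course had 2 samples per group.

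Grouped by those other samples, the REs lower in the step were mainly ones already called lower at 3 h of full depletion. Rapid-down REs, lower at 48 h and at 3 h of full depletion, numbered 9,516, and 3,905 of them (41.0%) were lower in the step. They made up 90.8% of the step's lower REs. Delayed-down REs, lower at 48 h and not called at 3 h, numbered 15,499, and 360 (2.32%) were lower, which is below the share over all REs. On full depletion the median log2 fold change was -1.077 in rapid-down and -0.464 in delayed-down REs. The call at 3 h rested on 2 samples per group, and the part of effect size and detection in this contrast was not tested. Of the 20,996 REs higher at 48 h, 646 (3.08%) were higher in the step. The median change of the rapid-down REs was below 0 in all 7 replicates, from -0.498 to -0.206, with a mean of -0.342 ± 0.095 (SD, n = 7). Delayed-down REs had a mean of -0.104 ± 0.057 and REs that were up had 0.112 ± 0.03. Replicate S9CC47_R6 had the lowest value in both down groups. Without it 4,222 rapid-down and 561 delayed-down REs were lower, and 1,484 of the REs that were up were higher.

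In cells without the tag few of these REs fell. In WT cells 220 REs (0.145%) were lower and 239 (0.158%) were higher at 500 nM, of which 4 and 149, respectively, were lower in the step. The 149 were 3.47% of the step's lower REs and 62.3% of those higher in WT cells. The named REs of ARPC1A, USP54, DIAPH1, SOX6 and the ETS1 RE with the larger fall were among them. So were the REs with a facing pair named after SLC39A11 and KLHL13, at 0.4 and 0.65 in WT cells (edgeR adjusted p = 0.0479 and 0.00419). The step's lower REs had a median log2 fold change of 0.14 in WT cells, opposite in sign to the step. This comparison held 2 samples per group, and with DESeq2 0 REs were called (1,214 at an unadjusted p under 0.05).

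The neighbouring steps were set beside this one to ask where along the titration accessibility moves. From 0 to 1.6 nM, which removed 48.3 points of SOX9, 1,425 REs were lower (0.941%) and 133 were higher (0.0878%). From 5 to 16 nM, which removed 17.7 points, 2,519 were lower (1.66%) and 962 were higher (0.635%), and without replicate S9CC47_R6 3,852 and 1,636. From 16 to 500 nM, which removed 7.2 points, 6,522 were lower (4.31%) and 5,791 were higher (3.82%). Both the step from 0 to 1.6 nM and that from 5 to 16 nM share samples with the step from 1.6 to 5 nM. On the scale of ratios the amounts of SOX9 removed were different, at 0.95, 1.0, 1.66 and 3.1 log2 units in the order of the steps. For rapid-down REs the mean of the 7 replicate medians was -0.174 ± 0.094 from 0 to 1.6 nM, -0.342 ± 0.095 from 1.6 to 5 nM, -0.279 ± 0.112 from 5 to 16 nM and -0.226 ± 0.084 from 16 to 500 nM (SD, n = 7). The 0 and 500 nM samples were used to choose these REs.

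**Figure D4:**
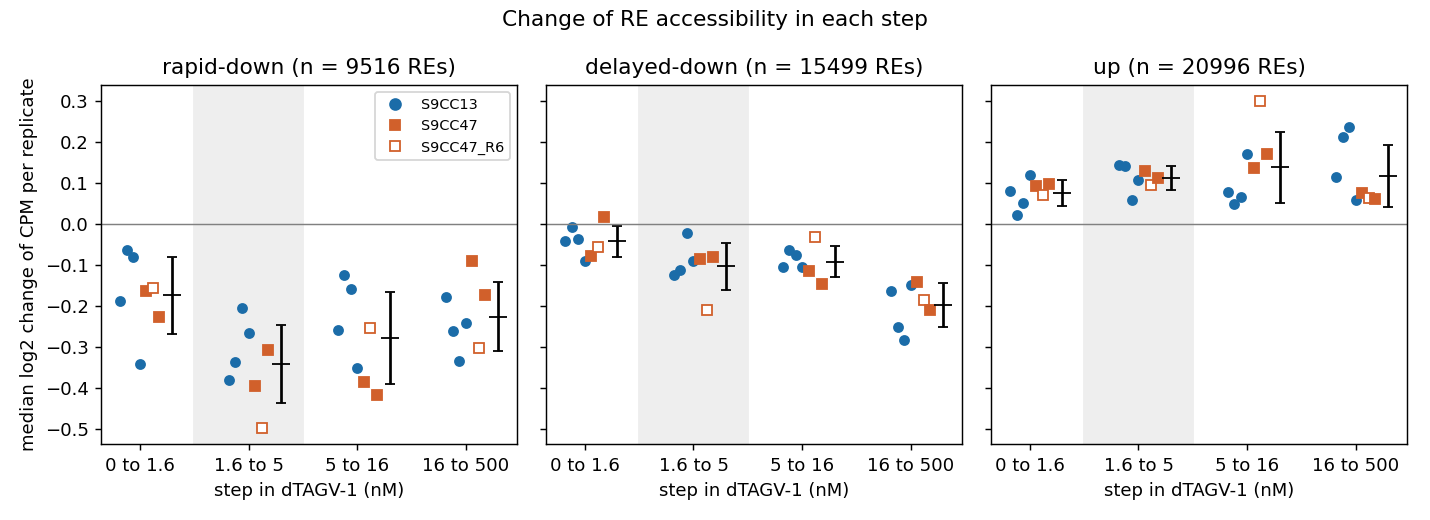
Median log2 change of CPM in each replicate (y axis) for the 4 steps of the titration (x axis, nM dTAGV-1) in rapid-down, delayed-down and up REs, with circles for clone S9CC13, squares for S9CC47, open squares for replicate S9CC47_R6, and bars for mean ± SD (n = 7). In the shaded step from 1.6 to 5 nM the rapid-down medians lie between -0.498 and -0.206, and in the last step the delayed-down mean is -0.198.

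Tested directly, a difference from the neighbouring steps was not detected at single REs with edgeR. In an edgeR fit of 35 samples with a contrast of the steps, the step from 1.6 to 5 nM differed from the step from 0 to 1.6 nM at 0 REs (6,240 at an unadjusted p under 0.05, smallest adjusted p = 0.222) and from the step from 5 to 16 nM at 0 REs (7,713 unadjusted, smallest adjusted p = 0.921). DESeq2 called 1 RE in the first and 0 in the second. Without replicate S9CC47_R6 edgeR called 2 and 0, and without replicate S9CC13_R14 0 and 0.

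Against the last step, from 16 to 500 nM, 253 REs differed (0.167%) with an edgeR adjusted p under 0.05, 934 with DESeq2 and 593 with edgeR without replicate S9CC47_R6. Without replicate S9CC13_R14 only 35 differed, 8 with the more negative change in the step from 1.6 to 5 nM and 27 with the more positive. Of its samples with conflicting labels, the 0.5 nM one was not in this fit. The 0 nM one was, with no weight in the contrast but a part in the replicate block and the dispersion. The cause of the smaller count was not tested. In 49 of the 253 the step from 1.6 to 5 nM was the more negative, and 42 of these were called lower in it. Their median level over the replicates was 80.4 ± 12.9% of the untreated level at 1.6 nM and 49.8 ± 7.5% at 5 nM, followed by 36.9 ± 8.4% with 16 nM and 43.0 ± 9.8% with 500 nM (SD over 7 replicates). In the other 204 the last step was the more negative, and 33 of these were also lower in the step from 1.6 to 5 nM. Those 33 stayed at 101.0 ± 6.1% at 0.5 nM and 94.5 ± 3.5% at 1.6 nM, fell to 70.6 ± 7.0% at 5 nM and 38.1 ± 11.3% at 16 nM, and ended at 13.9 ± 1.0% at 500 nM. They were strongly accessible, with a median of 27.52 CPM at 0 nM against 4.68 CPM for the 49, and 30 of the 33 held a SOX core, as did 35 of the 49. All 33 and 38 of the 49 were rapid-down. Without replicate S9CC13_R14 the 49 had 47.8 ± 6.1% at 5 nM and 40.3 ± 7.3% at 500 nM, and the 33 had 69.9 ± 7.4% and 13.6 ± 0.5% (SD, n = 6). In WT cells at 500 nM the median log2 fold change was 0.24 for the 49, of which edgeR called 3 higher, and 0.02 for the 33. The part of this in the last step was not tested. The levels at 1.6, 5, 16 and 500 nM entered the test that chose these sets.

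The sets can be read in single REs, chosen after their values were seen. The ZFHX3 RE had the smallest adjusted p of the difference among the 49, and among the 33 the SEPTIN9 RE came after REs near PREX1 and SULF2. An RE in an intron of ZFHX3, a zinc-finger homeobox factor, had means of 7.69 ± 3.07, 5.42 ± 1.78, 3.22 ± 0.9, 2.56 ± 0.69 and 3.11 ± 0.87 CPM at 0, 1.6, 5, 16 and 500 nM (SD, n = 7). Its log2 fold change was -0.74 in the step from 1.6 to 5 nM and 0.29 in the last step, a difference of -1.02 ± 0.17 (SE, adjusted p = 0.00489). An RE in an intron of SEPTIN9, which encodes a septin of the cytoskeleton, had means of 55.89 ± 11.14, 54.31 ± 9.47, 41.62 ± 11.9, 20.37 ± 5.27 and 5.73 ± 1.95 CPM at the same concentrations. Its log2 fold changes were -0.41 and -1.8, a difference of 1.42 ± 0.16 (adjusted p = 6e-06). The first was thus as low at 5 nM as at 500 nM, and the second lost most of its level between 5 and 500 nM. In WT cells at 500 nM their log2 fold changes were 0.28 and -0.08 (edgeR adjusted p = 0.341 and 0.811).

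**Figure D5:**
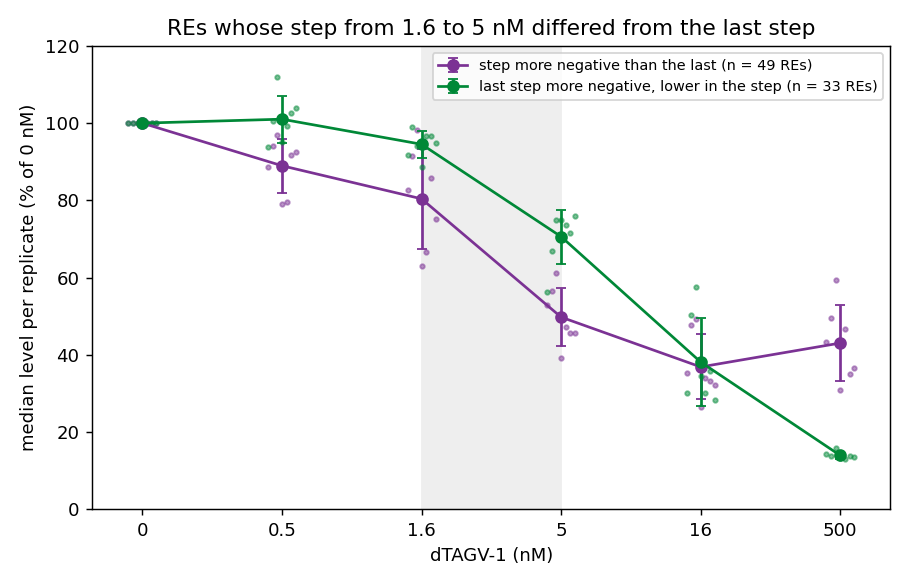
Median level per replicate, as a percentage of the 0 nM sample, against dTAGV-1 (nM, evenly spaced categories) for the 49 REs with the more negative change in the step from 1.6 to 5 nM and the 33 REs lower in that step with the more negative change in the last step. Small points are the 7 replicates and large points with bars their mean ± SD, and the means are 36.9% and 38.1% at 16 nM and 43.0% and 13.9% at 500 nM.

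A difference between the clones was not detected at single REs, in a design with 4 replicates of one and 3 of the other. The interaction of clone and step was called at 0 REs with edgeR (7,977 at an unadjusted p under 0.05) and at 0 with DESeq2 (3,104 unadjusted). Fitted alone, S9CC13 gave the 4,299 lower REs a median log2 fold change of -0.522 and S9CC47 gave them -0.596, and for the 733 higher REs the medians were 0.429 and 0.366. These samples took part in calling the REs. With its 3 replicates S9CC47 alone called 148 REs, and S9CC13 alone with 4 called 4,104.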

How the data were processed

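ATAC-seq of CNCCs was deposited by the authors as 1 table of raw counts of reads in 151,457 REs for 58 samples. Columns were mapped to samples by title, except 3 time-course columns that name another clone than the titles and were mapped to their group only. Per the study's methods, reads were aligned to hg38 with Bowtie2 (2.4.1), duplicates, mitochondrial and low-quality reads were removed with SAMtools (1.10), peaks were called with MACS2 (2.2.7.1), and summits seen in several differentiations were extended and merged. Adapter trimming preceded these steps. Counts are reads, not molecules, so low values carry counting error.

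Counts were tested with edgeR (4.0.16) quasi-likelihood, TMM scaling and the replicate (clone and differentiation) as a block, with Benjamini-Hochberg adjustment over all REs and a threshold of 0.05. SE is the log2 fold change divided by the square root of F. CPM uses TMM scaling over all samples, and changes per replicate add 0.1 CPM. DESeq2 (1.42.0) and a batch covariate, as in the study's methods, were alternatives. Replicates pair the samples: deviations of same-numbered samples correlated at 0.349 to 0.9 (mean 0.695, 7 pairs) over 123,684 REs. Over all 134 pairs of samples within groups, counts differed by more than counting error (reduced chi-square of at least 2.6). Whether differentiations were independent cultures beyond their labels was not checked, and p-values measure the spread between these samples.

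RE classes and nearest genes came from GENCODE release 44. An RE was at a gene if it overlapped the gene or had its start as the nearest protein-coding one within 100 kb. Named REs were the 8 lowest and 6 highest called REs with a mean of at least 1 CPM and the same direction in 7 replicates, the 2 with the smallest adjusted p for each of 13 gene lists, and the RE over the SOX9 start. Some REs that this rule names are not reported here, but the counts of their lists include them. Comparisons, lists and the step itself were chosen with earlier results of these data known. The edgeR fits of the step and of the clone interaction were tested on simulated data.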

Additional observations from a re-analysis of the deposited data

Results flagged for a closer look

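Samples were compared within each group of 7 by Dixon's test, over 84 groups, and 12 extremes passed its critical value, where chance flags about 1 in 20 groups. The total of the 1.6 nM sample of S9CC47_R8 was 67.3 M against 31.6 to 46.5 M in the others. The change of the promoter share from 1.6 to 5 nM was 6.96 percentage points in S9CC47_R6 against -1.12 to 2.03 in the others. The remaining 10 extremes were the highest CPM of a named RE. In S9CC47_R8 these were the LIMD1 RE (23.2 at 1.6 nM and 7.18 at 5 nM), the ID3 RE (31.5 and 25.1) and the TGFB2 RE (7.45 at 5 nM). In S9CC13_R14 they were the DTNBP1 RE (6.34 at 1.6 nM and 12.4 at 5 nM) and the FHOD3 RE (1.98 at 1.6 nM), and in S9CC13_R10 the CHRNA9 RE (1.46 and 2.62). Where both groups of an RE were extreme, the same replicate was highest in both.

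The step from 1.6 to 5 nM differed from the step from 16 to 500 nM at 253 REs by the contrast of both steps in 1 edgeR fit, at 593 without replicate S9CC47_R6 and at 35 without replicate S9CC13_R14.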

How the results depend on the processing

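The step called 5,032 REs, and the count stayed within 1.5 times of this with DESeq2 and the replicate block (4,309), relative log expression size factors (5,081), a filter on low counts (which removed no RE), thinning to the lowest total (4,155) and S9CC13 alone (4,104). With a GC offset and the replicate block 7,360 were called, 5,536 lower and 1,824 higher, so that the share lower went from 85.4% to 75.2%. Without the replicate block 255 REs were called in the step, all lower. It called 2,677 with the differentiation batch as covariate, 3,229 with DESeq2 and that batch, 148 in S9CC47 alone and, in subsets chosen after seeing the data, 1,953 in R5, R6 and R8 and 2,678 in R10, R13 and R14. Leaving out each replicate gave 3,562 to 6,711. In subsets and leave-one-out fits fewer samples enter, and otherwise the cause was not tested.

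Without the replicate block the other counts were 0 for the step from 0 to 1.6 nM (from 1,558; 1,683 at an unadjusted p under 0.05 with edgeR), 115 from 5 to 16 nM (from 3,481), 43 from 16 to 500 nM (from 12,313), 15,103 for full depletion (from 46,401), 3 for the difference from the last step, 0 at 3 h (8,306 unadjusted), 969 at 24 h (from 22,159) and 0 in WT cells (383 unadjusted). DESeq2 gave 878 from 0 to 1.6 nM, 7,284 from 16 to 500 nM, 1 and 934 for the differences from the steps 0 to 1.6 nM and 16 to 500 nM, 13,283 at 24 h and 0 in WT cells. Without replicate S9CC47_R6, added after seeing the data, there were 5,488 from 5 to 16 nM and 2 and 593 for the same differences. Without replicate S9CC13_R14, also added after seeing the data because of its conflicting concentration labels, they were 0 (edgeR) and 35, with 1,509 for the step from 0 to 1.6 nM and 43,631 for full depletion, and rapid-down REs numbered 9,485, of which 3,904 (41.2%) were lower in the step. Of 741 results of named REs under alternatives, 649 kept their direction and side of the threshold and 92 kept their direction only.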
